A study of Mus musculus with 12 samples.

Results

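The chemokines encoded by *Cxcl9*, *Cxcl10*, and *Cxcl11* share a single signaling receptor, CXCR3, and were chosen for that shared receptor. They are 3 of the 43 panel genes measured in B16.F10 tumors on the NanoString nCounter platform, where a transcript is tagged with a fluorescent barcode and read without amplification. B16.F10 is a murine melanoma cell line of C57BL/6 origin. For each tumor, 1000000 of its cells were inoculated under the skin of C57BL/6 mice aged 6 to 8 weeks. All 12 tumors had reached about 200 mm3 when they received 1 intratumoral injection of 100 µL, and all were harvested 6 hours afterwards. The negative control group (4 tumors) received PBS, the vehicle control group (4 tumors) received free D-PDB (*i.e.* the endosomolytic polymer carrier without DNA) at a dose equivalent to that in NanoISD, and the NanoISD group (4 tumors) received D-PDB loaded with phosphorothioate-capped double-stranded DNA at 2 µg. Free DNA without the carrier was not among the groups analysed here. Each value is a log2 fold change relative to the PBS-treated tumors, scaled by the authors to the 5 house-keeping genes of the panel, so that a value of 1 is a doubling. Levels of different genes cannot be set against each other on this scale, and only their changes can. The barcode counts behind the values were not analysed here, and the depth is therefore unknown. Each of the 3 ligands had its lowest value in only 1 tumor, so no shared lowest value that a detection limit could leave was seen.

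CXCL9, CXCL10, and CXCL11 are small chemokines that are secreted by macrophages, dendritic cells, stromal cells, and tumor cells that have received an interferon signal. Their receptor is carried by activated T cells and natural killer cells, and in tumors the ligands are best known for drawing these cells in. *Cxcl10* responds to type I interferons, to interferon gamma, and to NF-κB, whereas *Cxcl9* depends more strictly on interferon gamma. Cytosolic DNA sensed by cGAS leads through STING to both type I interferon and NF-κB signaling, which is the pathway that NanoISD was built to engage. *Cxcr3*, *Ifng*, and markers of melanocytes, T cells, natural killer cells, and myeloid cells were not analysed here, so the labelled tissue could not be checked against its markers. In RNA from a whole tumor, a change in the number of ligand-producing cells and a change in the RNA made per cell cannot be told apart.

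In the RefSeq annotation of the C57BL/6J assembly (GRCm38.p6), the 3 genes neighbor each other on chromosome 5 in the order *Cxcl9*, *Cxcl10*, *Cxcl11*, in a stretch that the span of *Art3* overlaps. *Cxcl9* and *Cxcl10* are listed as protein-coding. *Cxcl11* is listed as a transcribed pseudogene, the only one of the 47 gene names matched by symbol that is not protein-coding in this strain. Mice and tumor cells alike are of this background, so by this annotation a functional CXCL11 protein is not expected in these tumors. The values are of RNA, and protein was not measured. Which *Cxcl11* sequence the panel probe binds is not given in the sources used here, so the *Cxcl11* values are given as those of the probe.

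RefSeq promoters were matched for *Cxcl9* and *Cxcl10*, and the 250 bases before each start are shown. The promoter set used held no entry for *Cxcl11*. Both lie on the minus strand of GRCm38.p6, *Cxcl9* at chr5:92328080-92328329 and *Cxcl10* at chr5:92348890-92349139, and are printed 5′ to 3′ along the gene. Capitals mark matches to any of 5 motifs searched on both strands: the core bound by interferon regulatory factors (AANNGAAA), a gamma-activated site (TTCNNNGAA), a κB site (GGGANTTCC), an AP-1 site (TGANTCA), and a CCAAT box (CCAAT).
*Cxcl9*: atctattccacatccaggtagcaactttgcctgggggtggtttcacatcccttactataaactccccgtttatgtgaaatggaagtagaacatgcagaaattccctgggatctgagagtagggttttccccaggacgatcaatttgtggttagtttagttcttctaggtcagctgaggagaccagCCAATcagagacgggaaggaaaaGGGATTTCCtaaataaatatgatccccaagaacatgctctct
*Cxcl10*: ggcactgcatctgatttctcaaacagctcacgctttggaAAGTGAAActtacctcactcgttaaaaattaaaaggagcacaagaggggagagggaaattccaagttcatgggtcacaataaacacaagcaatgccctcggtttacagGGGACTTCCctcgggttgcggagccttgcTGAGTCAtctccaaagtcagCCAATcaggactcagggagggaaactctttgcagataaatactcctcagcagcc
The *Cxcl10* window held the interferon regulatory factor letters from 211 to 204 bases before the start, letters that 21.3% of 32817 RefSeq promoter windows of the same length hold. The *Cxcl9* window did not hold them. The κB letters, found in 1.43% of the windows, were present in both, from 103 to 95 bases before the start of *Cxcl10* and from 42 to 34 bases before the start of *Cxcl9*. AP-1 letters (6.75% of windows) were present for *Cxcl10*, CCAAT letters (33.8% of windows) for both, and the gamma-activated site letters (7.01% of windows) for neither. The matches to different motifs did not overlap. Only these exact letters were searched, so other forms of the same sites would stay unmarked. An absent match therefore does not show that a site is absent. A match describes the sequence only, and binding was not measured.

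*Cxcl10* had the strongest response of the 3 ligands. In the NanoISD-treated tumors 1, 2, 3, and 4 its log2 values were 3.59, 2.07, 5.64, and 4.67. In the PBS-treated tumors they were -0.34, 0.72, -0.12, and -0.26, and in the D-PDB-treated tumors 0.49, 0.79, 0.47, and 0.40. All NanoISD-treated tumors lay above all 8 others, including tumor 2, which had the weakest response. The mean after NanoISD was 3.99 ± 1.53 (SD, n = 4), and *Cxcl10* rose by 3.99 on the log2 scale relative to PBS (standard error 0.60, adjusted p = 0.000448 in limma), a 15.9-fold change with a 95% interval of 6.46 to 39.2. Relative to D-PDB it rose 11.0-fold (95% interval 4.45 to 27.0, adjusted p = 0.00252 in limma). These were the 2nd largest of the 43 differences from PBS and the largest of the 43 from D-PDB. Within single tumors, *Cxcl10* had the highest log2 fold change of the 43 panel genes in NanoISD tumors 3 and 4. It ranked 4th in tumor 2 and 12th in tumor 1.

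*Cxcl11* rose less and from a narrower baseline. Its log2 values were 1.33, 0.22, 3.45, and 2.34 in NanoISD tumors 1, 2, 3, and 4, against -0.11, 0.01, -0.04, and 0.13 in the PBS-treated tumors and -0.58, -0.05, -0.33, and -0.04 in the D-PDB-treated tumors. Again all NanoISD-treated tumors lay above the 8 others, although tumor 2 exceeded the highest PBS-treated tumor by less than the range of the PBS-treated tumors, 0.24. The mean after NanoISD was 1.84 ± 1.38 (SD, n = 4), and *Cxcl11* was 3.57-fold higher than after PBS (95% interval 1.59 to 8.02, adjusted p = 0.0155 in limma). Relative to D-PDB it was 4.24-fold higher (95% interval 1.89 to 9.52, adjusted p = 0.0157 in limma). The call against D-PDB was lost without D-PDB tumor 1 (adjusted p = 0.0532 in limma) and when the PBS-treated tumors were taken out of the fit (adjusted p = 0.0590 in limma), while the difference stayed near 2 log2 units, at 1.97 and 2.08.

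*Cxcl9* did not pass the test in any comparison. Its log2 values in NanoISD tumors 1, 2, 3, and 4 were 0.55, -0.50, 2.29, and 2.21. In the PBS-treated tumors they were 0.14, 0.62, 0.13, and -0.89, and in the D-PDB-treated tumors 1.5, 1.77, -3.35, and 0.47. NanoISD tumors 3 and 4 were the highest of the 12 tumors, but tumors 1 and 2 fell inside the PBS range, and D-PDB tumors 1 and 2 lay above both of them. After NanoISD the mean was 1.14 ± 1.35 (SD, n = 4). D-PDB-treated tumors averaged 0.10 ± 2.37 (SD, n = 4). The difference from PBS was 1.14 on the log2 scale (95% interval -0.98 to 3.25, adjusted p = 0.327 in limma), and that from D-PDB was 1.04 (95% interval -1.07 to 3.15, adjusted p = 0.389 in limma). Both intervals include 0 and changes of more than 3 log2 units. In NanoISD tumor 2 and in D-PDB tumor 3, *Cxcl9* had the lowest log2 fold change of the 43 panel genes. D-PDB tumor 3 set much of the spread. Without it the difference from D-PDB was -0.11, and the standard error of the difference from PBS fell from 0.98 to 0.62, with an adjusted p of 0.127 in limma.

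**Figure D1:**
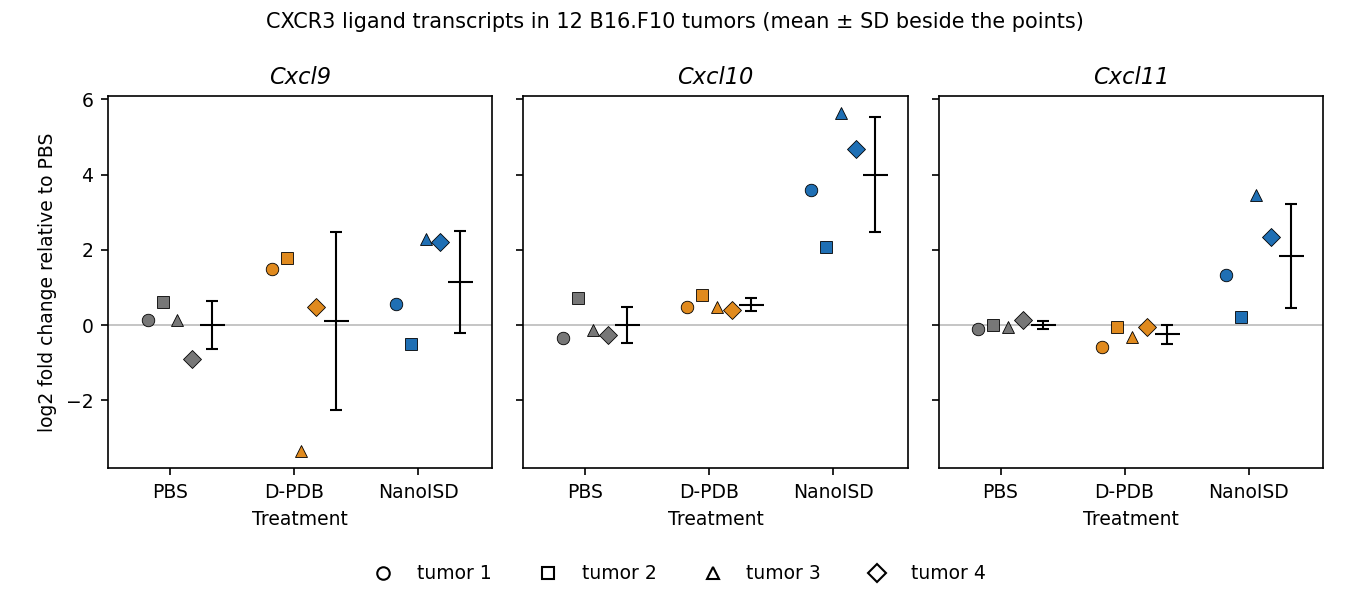
Log2 fold change relative to PBS (y axis) of *Cxcl9*, *Cxcl10*, and *Cxcl11* in each tumor of the 3 treatments (x axis); symbols give the tumor number, and the bar beside each group is the mean ± SD of 4 tumors. The NanoISD-treated tumors lie above all 8 others for *Cxcl10* (2.07 to 5.64) and *Cxcl11* (0.22 to 3.45) and overlap them for *Cxcl9*, where D-PDB tumor 3 is at -3.35.

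The calls of the ligands stood in a panel of which much moved. Relative to PBS, 51.2% of the 43 panel genes were higher at an adjusted p of 0.05 in limma, and 41.9% had no overlap between the groups with NanoISD higher. Relative to D-PDB, 25.6% were higher and 18.6% had no overlap. Of the 3 ligands, 2 passed and had no overlap in each comparison, and beside these shares such a count says little about the ligands as a family. The difference of *Cxcl10*, at 3.99 from PBS and 3.46 from D-PDB, was far from the middle of the panel. The median difference over the 43 genes was 1.20 from PBS and 1.01 from D-PDB on the log2 scale. *Cxcl9* lay near these medians, at 1.14 and 1.04, with standard errors of 0.98, against a median standard error of 0.50 over the panel. No panel gene was lower after NanoISD (0 genes in limma at an adjusted or an unadjusted p of 0.05, in either comparison).

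**Figure D2:**
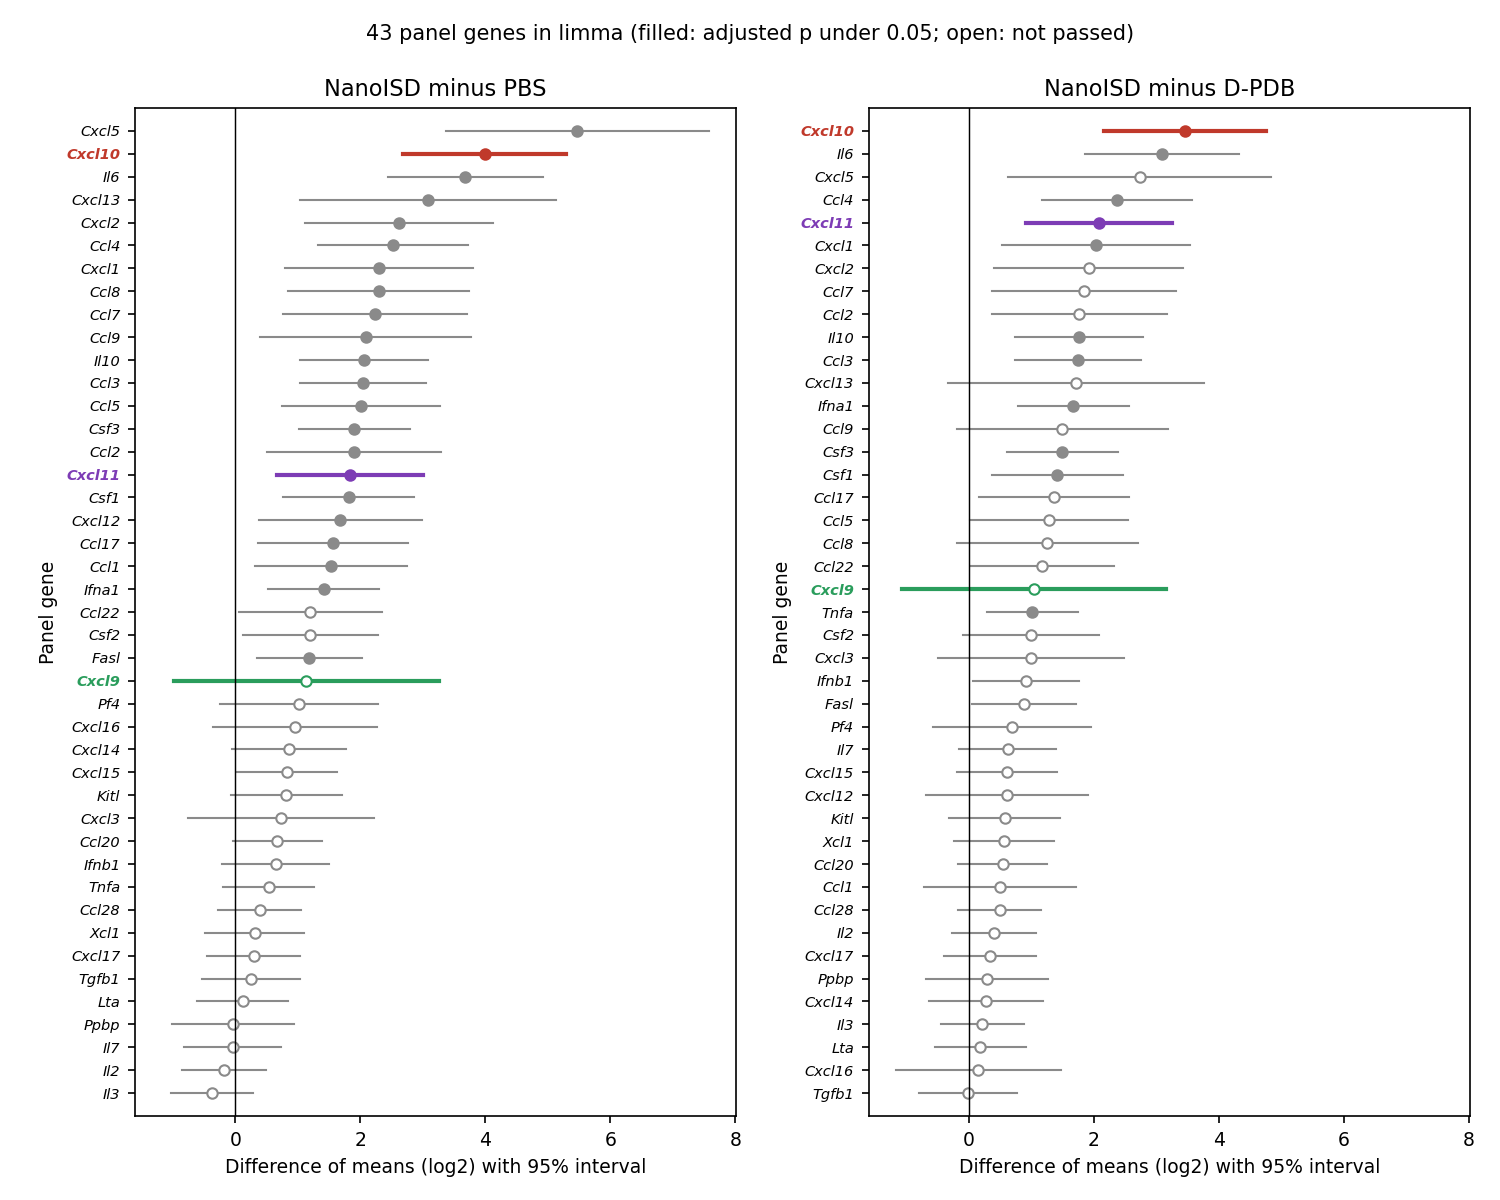
Difference of means on the log2 scale (x axis) with its 95% interval for each of the 43 panel genes (y axis), NanoISD minus PBS on the left and NanoISD minus D-PDB on the right, sorted by size; filled points passed an adjusted p of 0.05 in limma. *Cxcl10* stands 2nd on the left at 3.99 and first on the right, *Cxcl11* is at 1.84 on the left, and the interval of *Cxcl9* spans 0 in both.

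Free D-PDB left the 3 ligands without a call. *Cxcl10* was 0.54 above PBS on the log2 scale (95% interval -0.76 to 1.84, adjusted p = 0.831 in limma). *Cxcl11* was at -0.25 relative to PBS (95% interval -1.41 to 0.92, adjusted p = 0.866 in limma). *Cxcl9* was at 0.10 (95% interval -2.02 to 2.21, adjusted p = 0.944 in limma). The spread behind these intervals includes that of the NanoISD-treated tumors. With only D-PDB and PBS in the fit, the standard error fell from 0.60 to 0.27 for *Cxcl10* and from 0.54 to 0.21 for *Cxcl11*. For *Cxcl9* it was 1.03, against 0.98. *Cxcl10* and *Cxcl11* still did not pass (adjusted p = 0.389 and 0.607 in limma), which does not show that D-PDB left them unchanged. In this comparison 0% of the panel passed in limma in either direction, and 1 gene, not a CXCR3 ligand, passed at an unadjusted p of 0.05. The *Cxcl10* values of the 4 D-PDB-treated tumors were close together, within 0.39, and all 4 lay above PBS tumors 1, 3, and 4. Only 1 of them exceeded PBS tumor 2, at 0.72, and without that tumor the difference was 0.78, which did not pass either. In order of their means, NanoISD was highest for each ligand. PBS and D-PDB, the neighbors at the lower end, did not differ beyond their spread for *Cxcl10* or *Cxcl11*, and for *Cxcl9* no neighboring pair did.

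The 3 ligands ordered the NanoISD-treated tumors in the same way, with tumor 3 highest, then tumors 4, 1, and 2. None of the 40 other panel genes had this order. In 28 of them tumor 1 was the highest, and tumor 3 was so in 10. The mean over these 40 genes was 2.50 in tumor 1, 0.58 in tumor 2, 1.49 in tumor 3, and 0.99 in tumor 4. Tumor 1 thus had the strongest response of the remaining panel, while each CXCR3 ligand was higher in tumors 3 and 4 than in tumor 1. Among the 40 other genes this held for 1, *Ccl28*, which encodes a mucosal chemokine and was named after its values were seen. The order was noticed in the values and is given without a test.

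**Figure D3:**
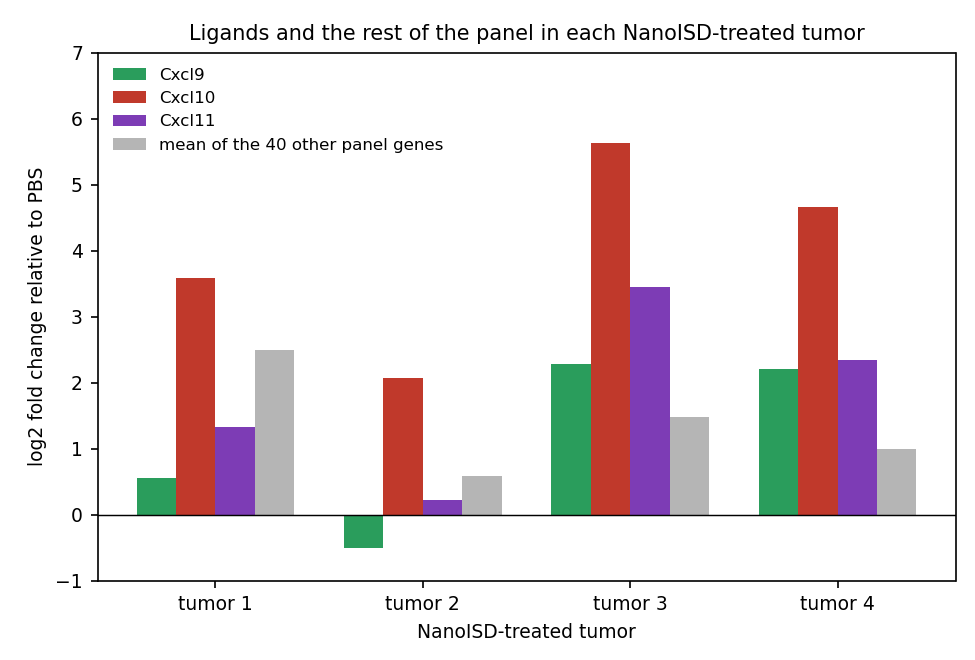
Log2 fold change relative to PBS (y axis) of the 3 ligands and the mean of the 40 other panel genes in each of the 4 NanoISD-treated tumors (x axis, 1 bar per gene and tumor, no error bars because each bar is 1 tumor). The ligands are highest in tumor 3, whereas the mean of the other genes is highest in tumor 1, at 2.50.

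Among the NanoISD-treated tumors, the distance between ligands within a tumor varied less than the ligands themselves. *Cxcl10* spanned 3.57 and *Cxcl11* 3.23 log2 units. The value of *Cxcl10* minus that of *Cxcl11* in the same tumor lay between 1.85 and 2.33 (2.16 ± 0.21, SD, n = 4). *Cxcl10* minus *Cxcl9* lay between 2.46 and 3.35 (2.86 ± 0.41, SD, n = 4), and *Cxcl11* minus *Cxcl9* between 0.13 and 1.16 (0.70 ± 0.43, SD, n = 4). For each ligand, the panel genes whose distance from it varied least over the 4 tumors were the other 2 ligands. The next for *Cxcl10* was *Ccl5*, with an SD of 0.79. This did not hold for every pair after PBS or D-PDB. The SD of *Cxcl10* minus *Cxcl11* was 0.49 after PBS, against 0.10 for *Cxcl11* alone, and that of *Cxcl10* minus *Cxcl9* was 2.30 after D-PDB, against 0.17 for *Cxcl10* alone. The scale set by the house-keeping genes cancels in these distances.

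A change in such a distance between treatments measures how unequally a pair of ligands changed. The distance between *Cxcl10* and *Cxcl11* was larger after NanoISD than after PBS by 2.15 log2 units (two-sided exact permutation test over the 70 splits of 8 tumors, p = 0.0286) and than after D-PDB by 1.37 (exact permutation test, p = 0.0286). That between *Cxcl10* and *Cxcl9* was larger than after PBS by 2.86 (exact permutation test, p = 0.0286). In each of the 3 cases the groups did not overlap, and an exact permutation p of 0.0286 is the smallest that 4 tumors against 4 allow. After Benjamini-Hochberg adjustment over the 9 tests of this kind, all 3 had a p of 0.0857 and did not pass (exact permutation tests). With only 3 of the 9 tests at the smallest p, none could pass, whatever the size of the differences. The adjusted p therefore cannot decide whether these distances changed. Limma on the same distances, whose p is not bounded by the number of splits, gave unadjusted p-values of 1.28e-05 and 0.000567 for *Cxcl10* minus *Cxcl11* against PBS and D-PDB, and of 0.0102 for *Cxcl10* minus *Cxcl9* against PBS. That fit held only the 3 distances, which are not independent of each other. Its estimate of the shared spread is therefore weak, and these p-values do not replace the exact tests.

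The distance between *Cxcl10* and *Cxcl9* ranged from -1.01 to 3.82 in the D-PDB-treated tumors, and was 2.42 larger after NanoISD than after D-PDB (p = 0.143 by exact permutation, 0.214 adjusted). The distance between *Cxcl11* and *Cxcl9* differed by 0.70 between NanoISD and PBS (p = 0.143 by exact permutation, 0.214 adjusted). Between NanoISD and D-PDB it differed by 1.05 (p = 0.429 by exact permutation, 0.551 adjusted). After D-PDB, the distance between *Cxcl10* and *Cxcl11* was 0.79 ± 0.26 (SD, n = 4), larger than after PBS by 0.79 (p = 0.0571 by exact permutation, 0.129 adjusted). The other 2 distances differed between D-PDB and PBS by 0.44 and -0.34, with exact permutation p-values of 0.943 and 0.914, and an adjusted p of 0.943 for both.

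**Figure D4:**
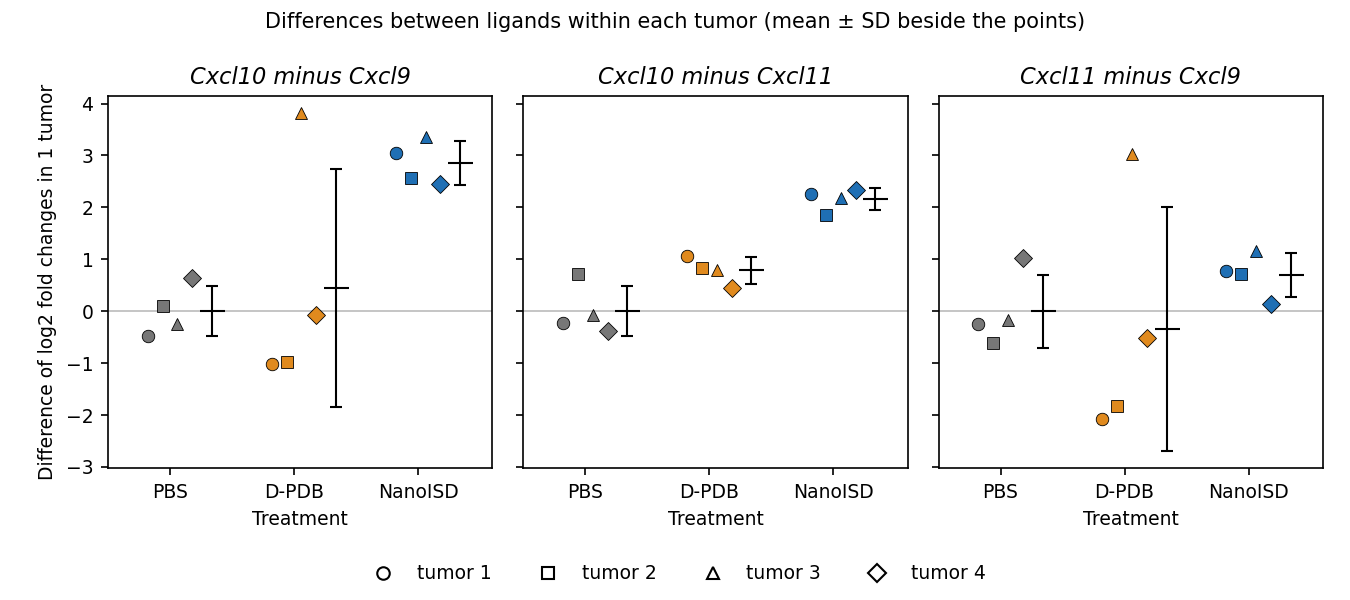
Difference between the log2 fold changes of 2 ligands in the same tumor (y axis) for the 3 treatments (x axis); symbols give the tumor number, and the bar beside each group is the mean ± SD of 4 tumors. *Cxcl10* minus *Cxcl11* lies between 1.85 and 2.33 in the NanoISD-treated tumors, above all others, while D-PDB tumor 3 stands out at 3.82 for *Cxcl10* minus *Cxcl9*.

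Pooled over the treatments, deviations of the ligands from their treatment means correlated positively in each pair, but *Cxcl11* with *Cxcl9* did not pass. For *Cxcl10* and *Cxcl11*, the SD was 1.53 and 1.38 after NanoISD, 0.49 and 0.10 after PBS, and 0.17 and 0.26 after D-PDB. The NanoISD-treated tumors thus weighed most in that pair. With the treatment means removed, the deviations of *Cxcl10* and *Cxcl11* over the 12 tumors had a Pearson's r of 0.932 (exact permutation of tumors within treatments, p = 0.0258, and 0.0386 adjusted over the 3 pairs) and a Spearman's rho of 0.692 (exact permutation p = 0.134, adjusted p = 0.147). Without NanoISD tumors 2 and 3, the 2 farthest in *Cxcl10*, r was 0.595 (exact permutation p = 0.309). The relation was also lost when any 1 of the 4 NanoISD-treated tumors was left out, with r between 0.830 and 0.932 and unadjusted exact permutation p-values from 0.0521 to 0.105, and passed when any 1 of the 8 other tumors was left out. For *Cxcl10* and *Cxcl9*, r was 0.528 (exact permutation p = 0.00897, adjusted p = 0.0269) and rho was 0.692 (exact permutation p = 0.0129, adjusted p = 0.0386). Without the same 2 tumors r was 0.395 and did not pass (exact permutation p = 0.0712), whereas it passed without tumor 2 alone (r = 0.389, unadjusted exact permutation p = 0.0385) and without tumor 3 alone (r = 0.484, unadjusted exact permutation p = 0.0281). For *Cxcl11* and *Cxcl9*, r was 0.460 (exact permutation p = 0.102, adjusted p = 0.102), rho was 0.503 (exact permutation p = 0.147, adjusted p = 0.147), and r was 0.247 without NanoISD tumors 2 and 3 (exact permutation p = 0.495). Leaving out D-PDB tumor 3 alone raised r to 0.885 for *Cxcl10* with *Cxcl9* (unadjusted exact permutation p = 0.00463). For *Cxcl11* with *Cxcl9* it raised r to 0.751, which did not pass (unadjusted exact permutation p = 0.117).

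Among the panel genes outside the family, likeness was described by Pearson's r over the 12 tumors, which share their treatments, and by r of the deviations from the treatment means. The 3 genes most like *Cxcl10* were *Il6*, an inflammatory cytokine (r = 0.908, deviations 0.483), *Csf1*, the growth factor of macrophages (r = 0.906, deviations 0.750), and *Ccl4*, an inflammatory chemokine (r = 0.905, deviations 0.622). For *Cxcl11* they were *Csf1* (r = 0.885, deviations 0.777), *Ifna1*, a type I interferon (r = 0.873, deviations 0.621), and *Ccl4* (r = 0.842, deviations 0.550). *Cxcl10* and *Cxcl11* were more like each other than like any of these, at r = 0.939. For *Cxcl9* they were *Ccl5*, a chemokine of T cells (r = 0.731, deviations 0.764), *Ccl1*, the ligand of CCR8 (r = 0.682, deviations 0.705), and *Cxcl16*, the ligand of CXCR6 (r = 0.640, deviations 0.639). With *Cxcl10* and *Cxcl11*, *Cxcl9* had a lower r, 0.519 and 0.531.

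Of the cytokines that induce these ligands, *Ifna1*, *Ifnb1*, and *Tnfa* were measured. *Ifna1* was at 1.42, 0.88, 2.51, and 0.86 in NanoISD tumors 1, 2, 3, and 4, against at most 0.22 after PBS and 0.35 after D-PDB, and so lay above all 8 other tumors. It rose by 1.42 on the log2 scale relative to PBS (adjusted p = 0.0155 in limma) and by 1.67 relative to D-PDB (adjusted p = 0.0140 in limma). *Ifnb1*, the other type I interferon of the panel, was at 0.92, 0.02, 1.38, and 0.28, and stood 0.65 above PBS and 0.91 above D-PDB without passing (limma, adjusted p = 0.178 and 0.0952). *Tnfa* stood 0.54 above PBS (limma, adjusted p = 0.188) and rose by 1.01 relative to D-PDB (limma, adjusted p = 0.0470). Both interferons, like the ligands, were highest in NanoISD tumor 3, but tumor 4 was below tumor 1 for both. Thus 1 of these 3 genes rose relative to PBS and 2 relative to D-PDB, beside panel shares of 51.2% and 25.6%.

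Of the 8 other T cell-attracting chemokines measured, 6 rose relative to PBS (*Ccl3*, *Ccl4*, *Ccl5*, *Ccl17*, *Cxcl12*, and *Cxcl13*), beside 51.2% of the panel, and *Ccl22* and *Cxcl16* did not pass, with differences of 1.20 and 0.96 on the log2 scale. Relative to D-PDB, where 25.6% of the panel was called, 2 of the 8 rose, *Ccl3* by 1.75 and *Ccl4* by 2.37, both inflammatory chemokines. The median difference of the 8 was 1.85 from PBS and 1.32 from D-PDB, against 1.20 and 1.01 over the panel. *Cxcl13*, which draws B cells through CXCR5, rose by 3.08 relative to PBS and stood 1.72 above D-PDB (limma, adjusted p = 0.169). *Cxcl12*, the ligand of CXCR4, rose by 1.68 relative to PBS and stood 0.61 above D-PDB (limma, adjusted p = 0.408). Of the 12 CXC chemokines that are not CXCR3 ligands, 3 of which are also among the 8, 5 rose relative to PBS and 1, *Cxcl1*, relative to D-PDB. These counts stand beside the same panel shares of 51.2% and 25.6%. The median difference of the 12 was 0.99 from PBS and 0.65 from D-PDB, against 1.20 and 1.01 over the panel. No gene of either list was lower in either comparison, and none passed between D-PDB and PBS (0 genes in limma).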

How the data were processed

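RNA (100 ng per tumor) was hybridized to barcoded probes for 43 panel genes and 5 house-keeping genes and counted on the NanoString nCounter system. Counts were processed by the authors with nSolver. The deposited values are log2 fold changes, given to 2 decimals and used here without a further filter, pseudocount, or scaling. In the deposited log2 values, the mean of the PBS-treated tumors is within 0.0025 of 0 for each gene, and that of the house-keeping genes within 0.002 of 0 for each tumor. The nSolver version, background threshold, and genome build are not given in the sources used here. No 2 tumors had identical values. The p-values measure the spread between tumors within groups, which the labels number as replicates. In limma the spread was pooled over the 3 treatments. For *Cxcl10* the SD was 1.53 after NanoISD, 0.49 after PBS, and 0.17 after D-PDB. With only the 2 compared treatments in the fit, the adjusted p in limma against PBS was 0.00536 for *Cxcl10* and 0.0398 for *Cxcl11*. Against D-PDB it was 0.00808 for *Cxcl10* and 0.0590 for *Cxcl11*. No batch is named.

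Treatments were taken from the sample labels. The fit across genes used lmFit and eBayes of limma 3.58.1 (R 4.3.3) on all 12 tumors together, and p-values were adjusted per comparison over the 43 panel genes (Benjamini-Hochberg, threshold 0.05). Distances between ligands were compared by two-sided exact permutation tests, and correlations by permuting tumors within treatments (13824 arrangements). The limma fit and the permutation test of the distances were tested on simulated data. Other steps ran in Python 3.11.15 with scipy 1.17.1, numpy 2.4.6, matplotlib 3.10.9, and pandas 2.3.3. The ligands, the gene lists, and the tests were chosen with earlier results of these data known, and the motifs with the sequences in view. The genes named are the ligands, for each the 3 panel genes with the highest Pearson's r to it, and measured members of the lists, with *Ccl28* named outside this rule. Of 48 gene names, 47 matched a RefSeq symbol (GRCm38.p6) and 1 a synonym (*Tnfa*).

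The alternatives were other house-keeping genes, each tumor left out, only 2 treatments in the fit, robust eBayes, a replicate block, array weights, genes with shared lowest values left out, all 48 genes in the fit, exact permutation tests on log2 and linear values, limma on the distances, and other forms of the correlations.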

Additional observations from a re-analysis of the deposited data

How the results depend on the processing

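Over the 25 alternatives for each ligand and comparison, *Cxcl10* stayed past the threshold against PBS (3.44 to 4.63 with single tumors left out) and D-PDB (2.91 to 4.10), and *Cxcl11* against PBS (1.30 to 2.38). *Cxcl11* against D-PDB ranged from 1.55 to 2.62 with single tumors left out and lost its call without D-PDB tumor 1 and with only 2 treatments in the fit (2.08, adjusted p = 0.0590 in limma). For *Cxcl9*, the sign turned with single tumors left out between NanoISD and D-PDB (-0.11 to 1.60) and between D-PDB and PBS (-0.46 to 1.25).

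The count of panel genes higher than after D-PDB was 11. It was 2 with only 2 treatments in the fit, and 5 to 20 with single tumors left out (leaving out D-PDB tumor 1 or 3 gave 5, D-PDB tumor 2 gave 7, D-PDB tumor 4 gave 17, and NanoISD tumor 2 gave 20). The count against PBS was 22, and 16 to 26 with single tumors left out.

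With single tumors left out, *Cxcl10* minus *Cxcl9* differed by 1.93 to 3.54 between NanoISD and D-PDB and by -0.69 to 0.92 between D-PDB and PBS. *Cxcl10* minus *Cxcl11* differed by 0.65 to 1.02 between D-PDB and PBS. *Cxcl11* minus *Cxcl9* differed by 0.47 to 2.17 between NanoISD and D-PDB and by -1.47 to 0.23 between D-PDB and PBS. In limma, with unadjusted p-values, the distance between *Cxcl10* and *Cxcl9* passed for NanoISD against D-PDB (2.42, p = 0.0237), as did that between *Cxcl10* and *Cxcl11* for D-PDB against PBS (0.79, p = 0.0184), neither of which passed the exact permutation test. Without D-PDB tumor 3, the 2 distances from *Cxcl9* passed for NanoISD against D-PDB, and without PBS tumor 2 *Cxcl10* minus *Cxcl11* passed for D-PDB against PBS (exact permutation p = 0.0286, unadjusted). The causes of these changes were not tested.

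The correlation of *Cxcl10* with *Cxcl11* did not pass as rho (0.692) or without the 2 farthest tumors (0.595), and r was 0.830 to 0.974 with single tumors left out. It was lost without NanoISD tumor 1, 2, 3, or 4 (exact permutation p = 0.0521, 0.105, 0.0972, and 0.0530). That of *Cxcl10* with *Cxcl9* did not pass without the 2 farthest tumors (0.395), and r was 0.389 to 0.885 with single tumors left out, each of which passed. That of *Cxcl11* with *Cxcl9* was 0.272 to 0.751, and passed without D-PDB tumor 1 (0.550).

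No pairing of the tumors by replicate number was evident, although 4 tumors per treatment cannot exclude it. Deviations of same-numbered tumors correlated with r from -0.516 to 0.469 over the panel genes, above 0.1 in 3 of 12 pairs, and 3 of 12 tumors correlated best with their own number. With the replicate block, the differences were the same, adjusted p-values in limma were 0.00141 and 0.0227 for *Cxcl10* and *Cxcl11* against PBS and 0.00652 and 0.0269 against D-PDB, and 21 and 8 panel genes were higher. The block changed no other call of a ligand. With 4 tumors per treatment the precision is limited, and signal over background is unknown.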
